A study of Mus musculus with 12 samples.

Results

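The 10 genes described here are 6 members of the HSP70 chaperone family (Hspa2, Hspa1l, Hspa1a, Hspa1b, Hspa8 and Hspa5), the related Hspa4l, both cytosolic HSP90 genes (Hsp90aa1 and Hsp90ab1) and the heat shock transcription factor gene Hsf2, out of 21938 mouse protein-coding genes. They were followed in wild-type spermatocytes of prophase I, the long first stage of meiosis, enriched for leptonema/zygonema (LZ), pachynema (P) or diplonema (D) by sedimentation of testis cells (STAPUT). The study's methods describe the mice of the sedimentation as adult and wild-type. They name C57Bl/6J and DBA/2J as backgrounds for the work as a whole, with DBA/2J for a drug treatment that is not part of these samples, and the samples' labels give no strain. Nascent RNA was sequenced by leChRO-seq, a run-on assay in which polymerases held on chromatin extend their transcripts with biotin-labelled nucleotides, in 4 libraries for each of the 3 substages, 12 in all.

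The 4 libraries of a substage were merged by the authors before dREG, a classifier that recognises the divergent run-on signal of promoters and enhancers, called 1 list of peaks for each substage. The lists held 71107 (LZ), 68352 (P) and 38603 (D) peaks. A peak was given to a gene when its edge lay less than 1000 bp from any transcription start site (TSS) of that gene in GENCODE M21 (mm10). By this rule the 10 genes had 36 peaks in LZ, 34 in P and 23 in D. These counts moved with the length of the lists, and with each list reduced to its 38603 highest-scoring peaks they were 23, 23 and 23. The lists carry no read counts, so the depth behind a peak is unknown, and with 1 pooled list a substage no spread between libraries can be given and no test between substages could be made. Every difference below is therefore a difference between 3 pooled lists. Fewer contributing cells and less nascent RNA per cell cannot be told apart. The peaks carry no strand, so a peak between 2 divergent genes cannot be assigned to either.

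HSP70 proteins bind and release unfolded stretches of other proteins in cycles of ATP hydrolysis that are started by J-domain proteins and ended by nucleotide exchange factors. HSP90 proteins act later, on nearly folded clients such as kinases and steroid receptors. In heat or proteotoxic stress, heat shock factors bind arrays of the unit GAA and its inverse TTC upstream of the inducible genes, while germ cells also carry HSP70 genes of their own that do not depend on stress. Among the 10 genes, Hspa2 and Hspa1l are known as the germ cell members. Hspa1a, Hspa1b and Hsp90aa1 are induced by heat and Hspa5 by stress of the endoplasmic reticulum (ER), whereas Hspa8 and Hsp90ab1 are made constitutively.

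The sequences immediately upstream of 4 of these genes are shown because the contrast between them is that between the germ cell and the heat-induced HSP70 genes, and because Hspa1a and Hspa1l start 547 bp apart on opposite strands, with both windows inside the interval between them. They were read from the RefSeq promoter table (GRCm38.p6), which holds 7 of the 10 genes. Each is written 5′ to 3′ on the strand of its gene and ends at the base before the first annotated exon. Capitals mark the facing heat shock units GAANNTTC. The windows are chr17:34972157-34972406 on the minus strand for Hspa1a, chr17:34959239-34959488 on the minus strand for Hspa1b, chr17:34972453-34972702 on the plus strand for Hspa1l, and chr12:76404120-76404175 on the plus strand for Hspa2.
Hspa1a: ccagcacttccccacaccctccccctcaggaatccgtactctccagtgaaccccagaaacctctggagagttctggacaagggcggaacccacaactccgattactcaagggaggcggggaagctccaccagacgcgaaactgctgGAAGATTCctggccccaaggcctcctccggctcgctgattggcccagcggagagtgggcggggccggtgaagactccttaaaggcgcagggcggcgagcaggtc
Hspa1b: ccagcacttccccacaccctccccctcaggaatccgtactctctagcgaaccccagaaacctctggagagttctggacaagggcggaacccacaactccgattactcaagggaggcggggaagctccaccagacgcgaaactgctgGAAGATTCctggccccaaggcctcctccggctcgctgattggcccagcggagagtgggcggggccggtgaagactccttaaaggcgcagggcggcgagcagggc
Hspa1l: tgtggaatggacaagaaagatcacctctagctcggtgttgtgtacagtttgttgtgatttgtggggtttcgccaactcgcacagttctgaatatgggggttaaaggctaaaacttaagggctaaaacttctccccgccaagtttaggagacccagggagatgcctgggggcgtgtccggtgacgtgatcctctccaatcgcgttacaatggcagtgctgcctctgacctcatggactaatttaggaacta
Hspa2: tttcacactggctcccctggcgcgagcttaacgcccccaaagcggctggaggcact

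The facing units GAANNTTC occurred once each in Hspa1a and Hspa1b, in both as GAAGATTC at bases -104 to -97 from the RefSeq start, and in none of the other 5 windows searched. The windows ran from 250 bases before to 50 bases after the start, both strands were searched, and 7.86% of the 32817 promoters of the table held this motif. For Hspa2 the window reached only 56 bases before the first GENCODE start, and sequence farther upstream was not searched. The opposite arrangement TTCNNGAA (8.51% of promoters) and 3 alternating units spaced by 2 bases (0.603% of promoters) had no match in the 7 windows. In all 3 substages the GAAGATTC of each gene lay inside the dREG peak that covered its TSS. Hspa5 was the only one of the 7 with the ER stress element, a CCAAT followed after 9 bases by CCACG, which 0.119% of promoters held. It is the site bound in the unfolded protein response, and read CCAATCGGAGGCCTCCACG at chr2:34772025-34772043 on the plus strand, 65 to 47 bases upstream of the RefSeq start, also inside the TSS peak of every substage.

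Common promoter motifs occurred in the windows of germ cell and stress-induced genes alike, though not at like positions. GGGCGG, the core of an Sp1 site, occurred in 7 of 7 windows (35.6% of promoters) and CCAAT, the site of NF-Y, in 6 of 7, all but Hspa4l (37.4% of promoters). The CCAAT count includes the one inside the ER stress element of Hspa5. TATAAA, present in 13.6% of promoters, and TGACGTCA, the site of CREB and CREM (1.79%), were in none of the 7 as spelled here. The MYB core CNGTTG was found for Hspa2 and Hspa4l (35.0% of promoters), and the form CNGTTA for Hspa2, Hspa4l, Hsf2 and Hspa5 (23.3%). Hspa1l had neither. The GC content of the 7 windows was 53.0% for Hspa1l, 61.0% for both Hspa1a and Hspa1b, 61.3% for Hspa5, 65.0% for Hspa2, 69.3% for Hsf2 and 74.7% for Hspa4l, against a median of 52.7% over the table. These matches describe letters in a window and not bound sites.

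All 10 genes had a peak in every substage. Over all protein-coding genes this share was 60.2% in LZ, 60.5% in P and 51.6% in D, and 49.5% of genes had a peak in all 3. Each gene was given the highest dREG score among its peaks. Because scores are not scaled between substages, this value was also expressed as a percentile, the percent of all protein-coding genes with a lower value in the same list, genes without a peak being lowest. A gene with a peak could not fall below a percentile of 39.8 in LZ, 39.5 in P and 48.4 in D. The median percentile of the 10 genes was 78.1 in LZ, 70.1 in P and 71.3 in D, beside 69.9, 69.7 and 74.2 for all genes with a peak. Within the 10 the spread was wide, from 64.7 to 87.4 in LZ, from 48.8 to 85.7 in P and from 48.9 to 96.0 in D.

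**Figure D1:**
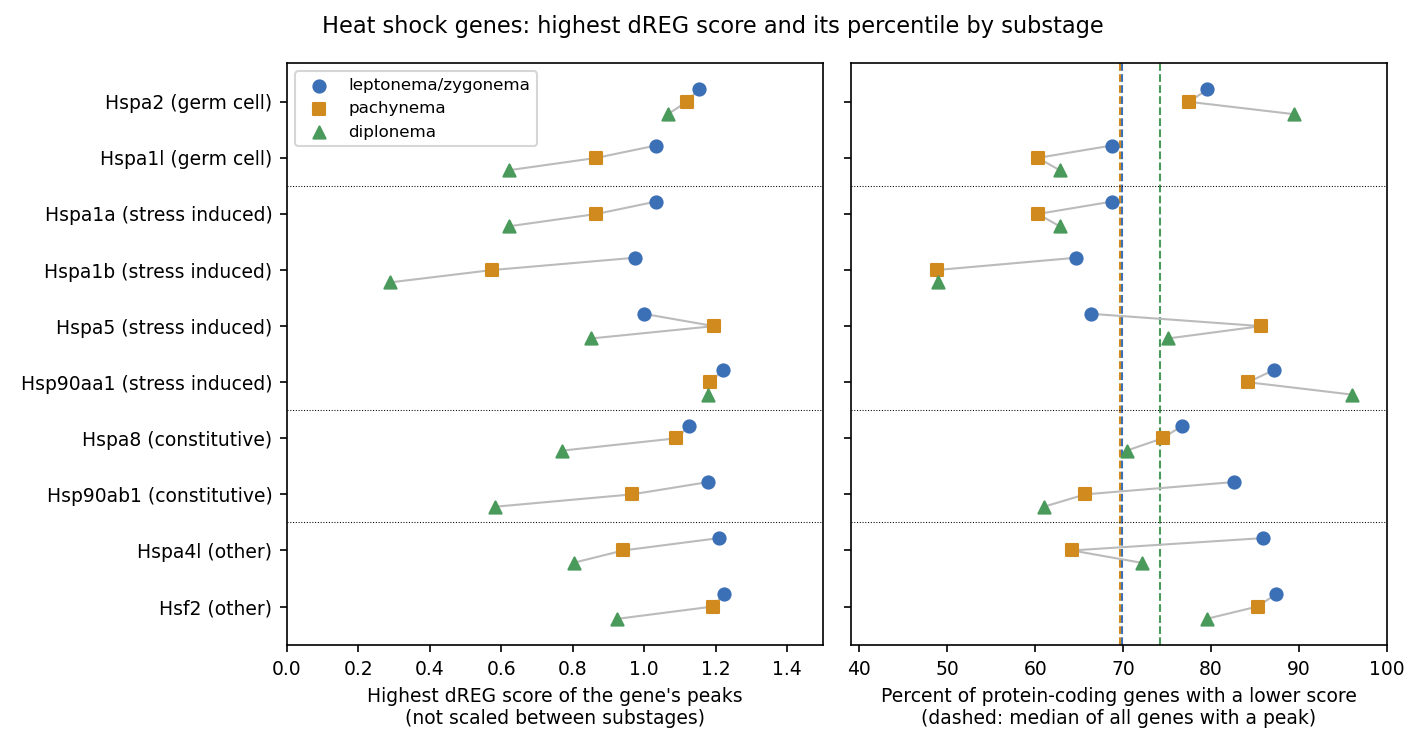
Highest dREG score (left, no unit) and its percentile among 21938 protein-coding genes (right) for the 10 heat shock genes in LZ (circles), P (squares) and D (triangles), with dotted lines between the gene classes and dashed lines at the median percentile of all genes with a peak. Each point is 1 pooled list of 4 libraries, without an error bar. Hsp90aa1 reached the highest percentile (96.0 in D) and Hspa1b the lowest (48.8 in P and 48.9 in D).

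Hspa2, whose product is required for spermatocytes to complete meiosis, kept a high score throughout. Its highest score was 1.152 in LZ, 1.119 in P and 1.066 in D, in each case from the peak over its TSSs. The percentile was 79.6 in LZ, 77.5 in P and 89.4 in D, so that Hspa2 held the fifth place among the 10 genes in LZ, the fourth in P and the second in D. The TSS peak spanned chr12:76403901-76404490 in LZ, chr12:76403901-76404480 in P and chr12:76403881-76404600 in D and covered both annotated starts of Hspa2 (gene chr12:76404176-76406938, plus strand). Weaker peaks flanked it on each side, and Hspa2 had 5 peaks in LZ, 6 in P and 3 in D. In P these extended farthest into the gene, to 1384 bp past the first start, with a score of 0.768 for the last one. All of these peaks but the last one in P were also less than 1000 bp from a TSS of the neighbouring gene 4930426I24Rik.

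Hspa1l, the other germ cell member, ranked well below Hspa2. The score of its TSS peak was 1.032 in LZ, 0.866 in P and 0.621 in D, and its percentile 68.7, 60.3 and 62.8. Hspa1l (chr17:34972703-34979285, plus strand) and the heat-induced Hspa1a (chr17:34969190-34972156, minus strand) point away from each other, and every peak near either gene was within 1000 bp of both, so that their highest scores were the same by construction. The peak over the Hspa1a start scored 0.946 in LZ, 0.848 in P and 0.445 in D, below the peak over the Hspa1l start in each list. The gap between these adjacent peaks was smallest in P and largest in D. When each peak was given only to the gene with the nearest TSS, the percentile of Hspa1a was 64.2 in LZ, 60.3 in P and 56.0 in D.

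Hspa1b, a second heat-induced copy whose start lies 9952 bp from the 3′ end of Hspa1a, had the lowest percentile of the 10 in every substage. In LZ the last place depended on how peaks were given to genes, since Hspa1a stood below Hspa1b (64.2 and 65.7) with each peak given to the nearest gene, and Hspa4l did (65.2 and 65.8) with the starts of protein-coding transcripts only. Hspa4l also stood below Hspa1b with RefSeq TSSs (63.6 and 64.3). Hspa1a also did with the score of the peak nearest to a TSS (65.6 and 67.0). The TSS peak of Hspa1b (gene chr17:34956436-34959238, minus strand) scored 0.975 in LZ, 0.574 in P and 0.289 in D. In D this peak was close to the weakest that dREG reported, with 4.16% of the list below it, compared with 78.9% below the LZ peak. The percentile of Hspa1b was 64.7, 48.8 and 48.9, and because the lowest percentile a gene with a peak could have was higher in D, the last 2 values do not lie equally far from the bottom. Ranked only among the 10851 genes with a peak in all 3 substages, Hspa1b stood at 31.2 in LZ, 5.1 in P and 0.9 in D. Hspa1a and Hspa1b are near-identical copies, with 99.4% of 1929 aligned coding positions and 98.7% of the 300 promoter bases the same, including a run of 201 identical promoter bases. Reads that lie wholly in such runs cannot be placed on one copy. The study gives its depth in uniquely mapped reads, but how reads with several matches were treated before dREG is not given in the sources used here. The values of Hspa1a and Hspa1b are therefore uncertain relative to each other and, if such reads were left out, relative to the other genes as well. Whether this bears on the low place of Hspa1b was not tested.

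Of the other stress-induced genes, Hspa5 and Hsp90aa1 did not share this course. Hspa5, which encodes the ER chaperone BiP, had the second lowest percentile of the 10 in LZ and the highest in P, with a score of 0.998 in LZ, 1.195 in P and 0.851 in D and a percentile of 66.3, 85.7 and 75.1. Its place in LZ depended on how peaks were given to genes. With each peak given to the nearest gene, Hspa5 (67.3) stood above both Hspa1a (64.2) and Hspa1b (65.7). With the starts of protein-coding transcripts only, Hspa5 (67.4) stood above both Hspa4l (65.2) and Hspa1b (65.8). Its TSS peak ran from -379 to 190 bp from the first annotated start in LZ, from -399 to 210 bp in P and from -349 to 400 bp in D (gene chr2:34771970-34777547, plus strand). Hsp90aa1, the heat-inducible HSP90 gene, scored 1.221 in LZ, 1.183 in P and 1.177 in D. Its percentile was 87.2, 84.2 and 96.0, the highest of the 10 in D and among the highest 3 in the other substages. Of its 8 annotated TSSs, 5 lay inside a peak in each substage, all of them at the downstream promoter (chr12:110695441-110697100 spans its peaks). The most upstream TSS, at position 110702728, had no peak within 5628 bp in LZ, 5948 bp in P and 6018 bp in D.

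The constitutive genes had lower percentiles in each later substage. Hspa8, the main cytosolic HSP70 of unstressed cells, scored 1.125 in LZ, 1.09 in P and 0.77 in D, with percentiles of 76.7, 74.5 and 70.4. Hsp90ab1, the constitutive HSP90 gene, scored 1.179 in LZ, 0.966 in P and 0.583 in D, with percentiles of 82.6, 65.7 and 61.0. Its TSS peak (gene chr17:45567775-45573271, minus strand) had 90.5% of the list below it in LZ, 81.1% in P and 55.9% in D. It had 4 peaks in LZ, 3 in P and 2 in D, in lists of unequal length. In LZ the 2 HSP90 genes had percentiles of 87.2 and 82.6, and in D of 96.0 and 61.0.

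**Figure D2:**
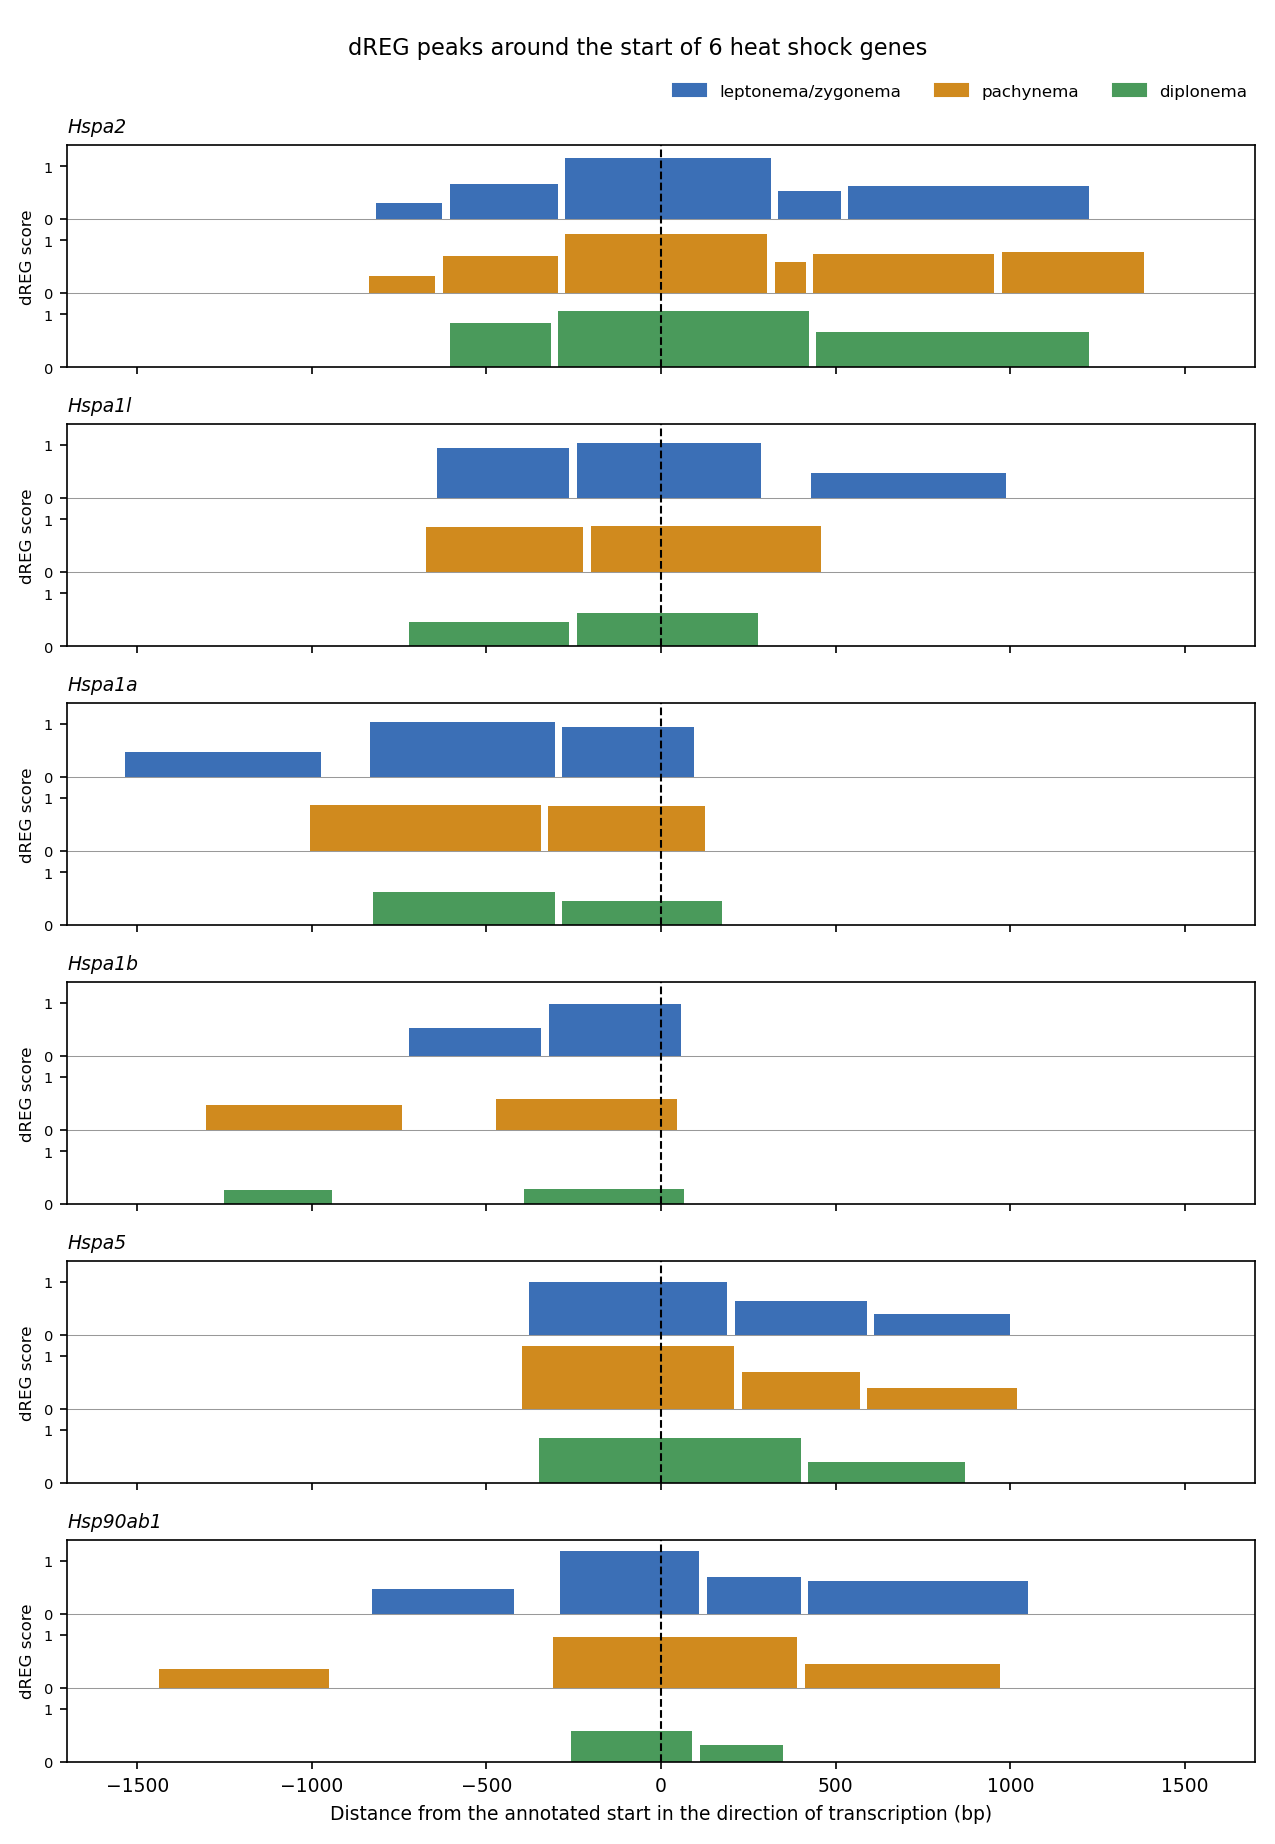
dREG peaks near the start of 6 heat shock genes, by distance in bp from the most upstream annotated start in the direction of transcription (horizontal) and dREG score (height of each block, drawn from 0) in LZ, P and D. The block over the Hspa1b start shrinks from 0.975 to 0.289 while the block over the Hspa2 start stays between 1.066 and 1.152, and the panels of Hspa1l and Hspa1a show the same peaks seen from either gene.

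Hspa4l, a relative of HSP70 that acts as a nucleotide exchange factor and is known for its expression in testis, had 9 peaks in LZ, 8 in P and 3 in D over several start sites. Its highest score was 1.209 in LZ, 0.941 in P and 0.802 in D (percentiles 85.9, 64.2 and 72.1), but these came from different places. In LZ the value belonged to a peak at chr3:40783761-40784380, inside the gene (chr3:40744495-40796103, plus strand) and over the start of a transcript with a retained intron, where P scored 0.745 and D 0.469. The peak over the protein-coding start at position 40745868 scored 0.744 in LZ, 0.66 in P and 0.802 in D. A neighbouring peak scored 0.964 in LZ (chr3:40746261-40746770) and 0.941 in P (chr3:40746271-40746720) and overlapped no D peak. With the starts of protein-coding transcripts only, the percentile of Hspa4l was 65.2 in LZ, 65.2 in P and 72.8 in D. The LZ and P values then came from the neighbouring peak and the D value from the peak over position 40745868.

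Hsf2, which encodes a heat shock factor present in spermatocytes without stress, scored 1.222 in LZ, 1.192 in P and 0.924 in D (percentiles 87.4, 85.3 and 79.5). It was among the first 3 of the 10 genes in every substage. Besides the peak over its start (gene chr10:57486385-57513135, plus strand), a strong peak began 566 bp into the gene and scored 1.101 in LZ and 1.016 in P. In D this stretch held 2 weaker peaks that scored 0.691 and 0.591. Every peak of Hsf2 was also less than 1000 bp from a TSS of 4930467K11Rik.

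Changes of rank between substages were counted as a rise or fall when the percentile moved by at least 10 points. From LZ to P, Hspa5 rose by 19.3 points. Hspa1b fell by 16.0, Hsp90ab1 fell by 17.0 and Hspa4l fell by 21.7 points, the last only where the internal start was counted. Over the 12498 genes with a peak in both substages, 14.6% rose and 14.5% fell by this measure, beside 1 and 3 of the 10 heat shock genes. The shift was negative for 9 of the 10 and for 49.4% of all genes, with medians of -5.69 and 0.1 points. The 9 count the shared peaks of Hspa1l and Hspa1a under both genes, and include Hspa4l. Hspa2, Hspa8, Hsp90aa1 and Hsf2 moved by -2.1, -2.1, -3.0 and -2.0 points, within the range from -5.96 to 5.99 that held the middle 50% of all genes.

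From P to D, Hspa2 rose by 11.9 and Hsp90aa1 by 11.7 points, and Hspa5 fell by 10.6. Over the 11166 genes with a peak in both, 18.7% rose and 14.9% fell, beside 2 and 1 of the 10. The median shift was 1.33 points for the heat shock genes and 1.47 for all. The raw scores of Hspa2 and Hsp90aa1 did not go up at this step (1.119 to 1.066 and 1.183 to 1.177), whereas the median highest score of all genes with a peak was 1.03 in P and 0.835 in D. From LZ to D none of the 10 rose by 10 points, where 25.8% of 10918 genes did, and 3 of the 10 fell, where 20.2% of genes did. These were Hspa1b with a shift of -15.8, Hspa4l with -13.8 and Hsp90ab1 with -21.6 points. The fall of Hspa4l was again tied to the internal start, and with the starts of protein-coding transcripts only its shift was 7.6 points. Ranked only among the 10851 genes with a peak in all 3 substages, where the same change in score moves a gene by more points, 3 of the 10 rose (Hspa2, Hsp90aa1 and Hspa5) and the other 7 fell from LZ to D, beside 34.5% and 31.8% of these genes. The 7 count the shared peaks of Hspa1l and Hspa1a under both genes and include Hspa4l with its internal start. The 3 steps share their lists and are not independent of each other. Of the germ cell genes, Hspa2 moved by 9.8 points from LZ to D and Hspa1l by -5.9. The shifts of Hspa1l and Hspa1a were the same by their shared peaks. With each peak given to the nearest gene, the shift from P to D was 2.4 for Hspa1l and -4.3 for Hspa1a.

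**Figure D3:**
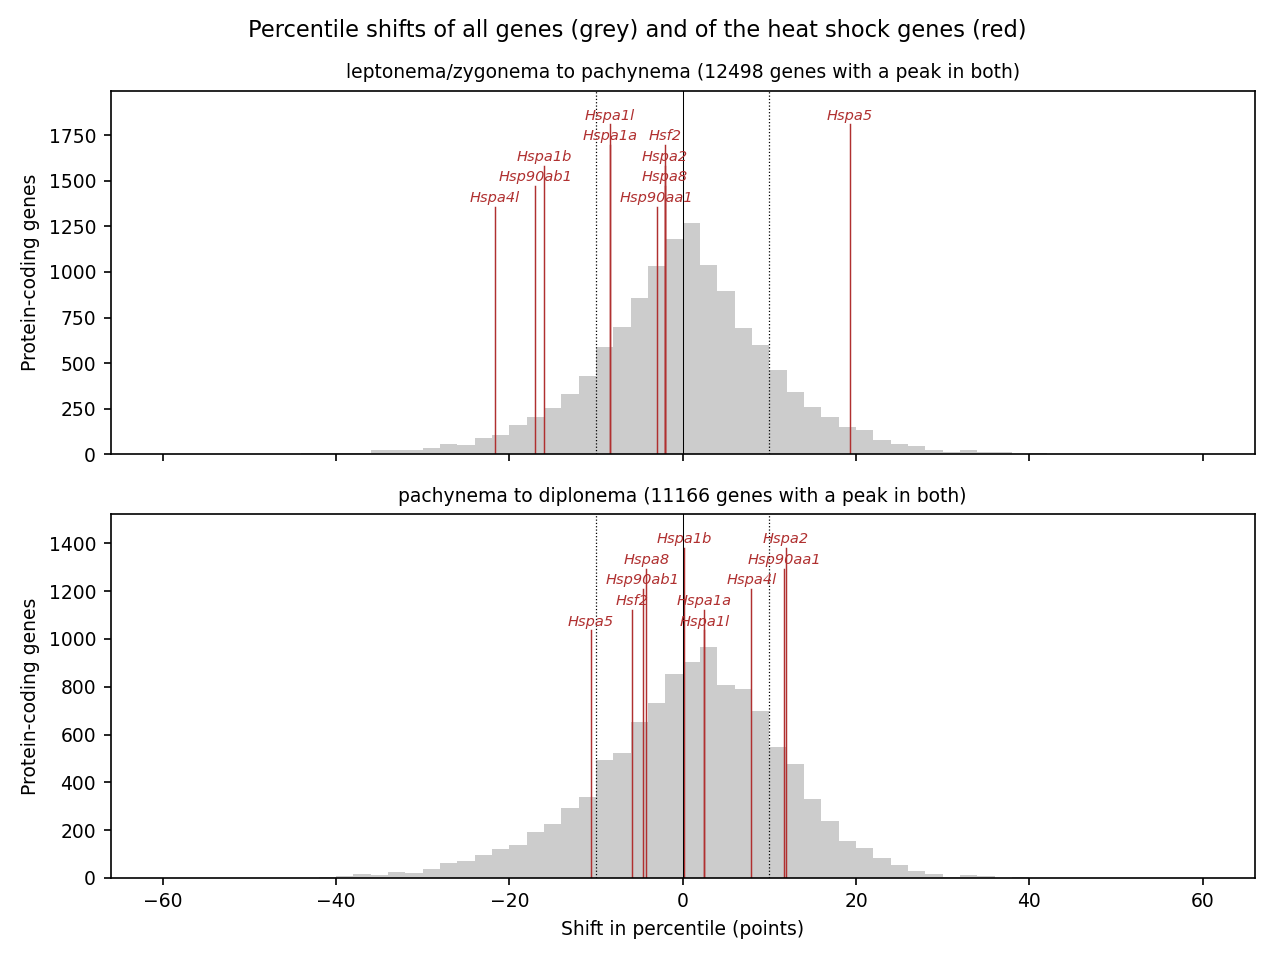
Shift in percentile (points) of all protein-coding genes with a peak in both substages (grey histogram, number of genes in bins of 2 points) with the 10 heat shock genes as red lines, from LZ to P (top) and from P to D (bottom). Dotted lines mark 10 points in either direction, and the lines of Hspa1l and Hspa1a coincide because they share their peaks. In the upper panel Hspa5 lies at 19.3 and Hspa4l, Hsp90ab1 and Hspa1b lie below -10.

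By class, the germ cell genes had median percentiles of 74.1, 68.9 and 76.1 in LZ, P and D, the 4 stress-induced genes 67.5, 72.3 and 68.9, and the constitutive pair 79.6, 70.1 and 65.7. The ranges of these classes overlapped in LZ and in P. In D the germ cell pair (62.8 and 89.4) overlapped the stress-induced genes (48.9 to 96.0) and the constitutive pair (61.0 and 70.4) as well. The germ cell and stress-induced ranges had to touch, because Hspa1l and Hspa1a share their peaks. With each peak given to the nearest gene, the germ cell pair stood in LZ at 69.6 (Hspa1l) and 80.1 (Hspa2), between Hspa1a at 64.2 and Hsp90aa1 at 87.6.

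The positions of the peaks were largely shared between substages. Of the 36 LZ peaks of the heat shock genes, 91.7% overlapped a P peak by at least 1 bp and 72.2% a D peak, where the values for all peaks near a TSS were 87.7% and 67.0%. Of the 34 P peaks, 94.1% overlapped an LZ peak (85.7% of all) and 73.5% a D peak (70.2%). Of the 23 D peaks, 95.7% overlapped LZ (89.4%) and all 23 overlapped P (95.3%).

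The protein-coding genes whose percentiles were most like those of Hspa2, by the summed absolute difference over the 3 substages, were Ptpn2 (1.45 points), Srsf1 (1.77) and Pnisr (3.01), and 29 genes lay within 5 points. Next to Hspa1l were Hspa1a (0.0 points, by the shared peaks), Drc7 (1.92) and Ccdc96 (2.27), with 25 genes within 5 points. These likenesses rest on 3 values for each gene.

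Around these genes the rest of the chaperone system was described with 8 lists of 83 genes. Of these, 77 had a peak in LZ (92.8%), 72 in P (86.7%) and 69 in D (83.1%), and 69 had one in all 3 (83.1%). Over all protein-coding genes the shares were 60.2%, 60.5%, 51.6% and 49.5%. From LZ to P 11 of the 72 genes with a peak in both rose and 10 fell, where 14.6% and 14.5% of all genes did. From P to D 11 of 69 rose and 6 fell, where 18.7% and 14.9% of all genes did. The other HSP70 family genes had high median percentiles of 89.1 in LZ and 91.1 in both P and D, above those of the 10 genes. Hsph1, a nucleotide exchange factor for HSP70, rose from 66.9 in LZ to 92.4 in P, while Hspa12b had no peak. Some genes named below had peaks less than 1000 bp from a TSS of another gene as well. These were Hsp90b1 (near Gm25745 and Ttc41), Pdia3 (Catsper2), Herpud1 (Gm15890), Ddit3 (Gm4189), Dnaja1 (Gm6297 and Mir207) and Dnajb6 (Gm5129). The same held for Dnajb8 (1700031F10Rik), Dnajb11 (Tbccd1), Dnajc7 (Nkiras2), Grpel1 (2210406O10Rik), Grpel2 (1500015A07Rik) and Hsf1 (Bop1). A shared peak cannot be assigned to either gene.

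The ER chaperones did not all follow Hspa5. Hsp90b1, the HSP90 of the ER, rose from 70.9 in LZ to 88.0 in P as Hspa5 did, and Clgn, a testis-specific lectin chaperone of the ER, rose from 59.5 to 82.5. Of the 13 ER stress genes with a peak in both substages, 2 rose (Clgn and Sdf2l1, the latter from 54.1 to 68.8) and none fell at this step, beside 14.6% and 14.5% of all genes. From P to D 4 of 13 rose and 1 fell, beside 18.7% and 14.9%. Pdia3, a protein disulfide isomerase, rose from 65.7 in P to 87.0 in D and Herpud1, which acts in ER-associated degradation, from 74.1 to 92.1, whereas Pdia4, another isomerase, fell from 93.6 to 60.9. Atf4 and Ddit3, transcription factors of the stress response, had a peak in LZ only, at percentiles of 46.1 and 48.0, and are not among these 13.

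The J-domain genes that start the HSP70 cycle held the largest rise from LZ to P, that of Dnaja1 from 57.6 to 83.7. Dnajb6 fell from 78.8 to 66.0 and rose again to 89.8 in D. Dnajc5b rose from 67.9 in P to 90.2 in D and Dnajc7 from 75.9 to 96.5, while Dnajb5 fell from 70.0 to 54.5 and Dnajb11, a J-domain protein of the ER, from 78.2 to 62.9. Dnajb8 had a peak in LZ only. In all, 1 of 16 J-domain genes rose and 4 fell from LZ to P, beside 14.6% and 14.5% of all genes, and 4 rose and 3 fell from P to D, beside 18.7% and 14.9%.

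Among the cofactors of HSP90, Cdc37l1, a relative of the kinase cochaperone Cdc37, rose from 80.3 in LZ to 98.5 in P. The largest falls at this step were those of Unc45a (78.4 to 46.8), a myosin chaperone, and of Ppid (87.1 to 58.9), a prolyl isomerase, and neither had a peak in D. Fkbp5, an isomerase that binds HSP90 with steroid receptors, fell from 91.4 to 75.7. Fkbp6, which germ cells need for meiosis, rose from 59.6 in LZ to 71.9 in P and fell to 61.3 in D. Of the 13 genes of this list 3 rose and 4 fell from LZ to P, beside 14.6% and 14.5% of all genes. Among the cofactors of HSP70, the mitochondrial exchange factor Grpel1 fell from 85.9 in LZ to 74.5 in P and its paralogue Grpel2 rose from 88.1 in LZ to 98.8 in P and fell to 86.8 in D, while Bag2 had a peak in LZ and P and Stub1, a ubiquitin ligase, in LZ only.

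The list of small heat shock proteins had the lowest share of genes with a peak among the 8 lists, 54.5% in each substage, which was near the 60.2%, 60.5% and 51.6% of all protein-coding genes in LZ, P and D. Of 11 genes that also include the mitochondrial Hspd1 and Hspe1, 6 had a peak in each substage, and Hspb2, Hspb3, Hspb8, Hspb9 and Cryab had none. Hspd1 and Hspe1 share one bidirectional promoter and had the same values, with a percentile of 62.7 in LZ, 64.5 in P and 55.7 in D. Of the other heat shock factors, Hsf1, the main regulator of the heat response, stood at 75.4, 86.4 and 88.6 and Hsf4 had a peak in LZ only. A gene without a called peak is not shown to be silent.

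**Figure D4:**
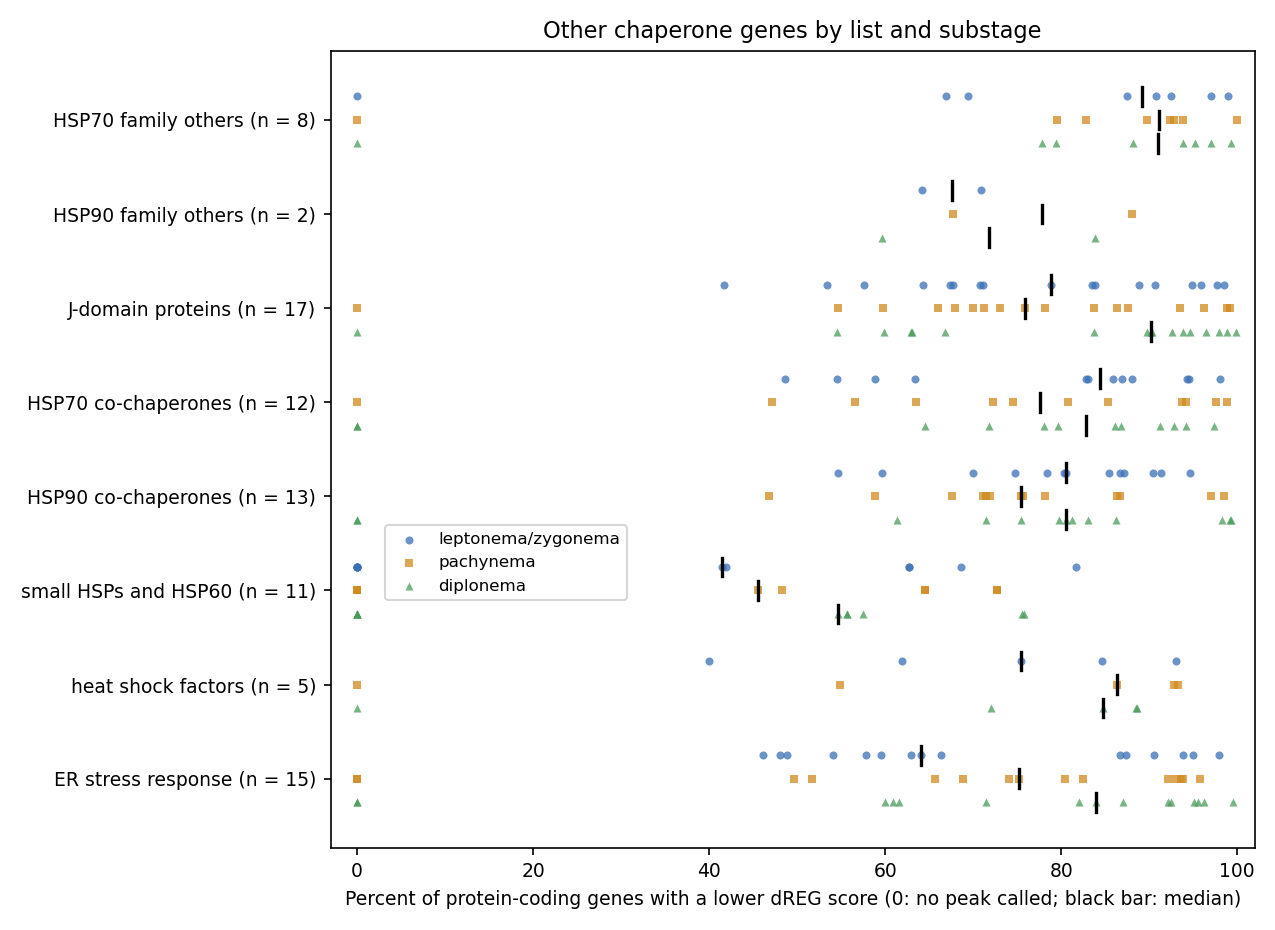
Percentile of the highest dREG score of 83 further chaperone and stress response genes in 8 lists, by substage, with a black bar at the median of each list. Points at 0 are genes without a called peak, such as 5 of the 11 genes in the list of small heat shock proteins and HSP60 in each substage, and the other HSP70 family genes have medians between 89.1 and 91.1.

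Markers of other cells were looked up in the same lists to see what else the enriched fractions held. All 6 markers of leptonema/zygonema had a peak in each substage, with median percentiles of 75.4, 84.5 and 87.3 in LZ, P and D. Dmc1 stood at 74.9, 55.9 and 57.8 and Sycp3 at 68.5, 86.7 and 98.3. Of 6 markers of pachynema and diplonema, 5 had a peak in LZ and 6 in P and D, and Pou5f2 had none in LZ. Their median percentile was 64.8, 76.3 and 69.7. Piwil1 stood at 56.0, 77.1 and 99.1 and Mybl1 at 77.2, 81.6 and 68.1. The median of the leptonema/zygonema markers was thus highest in D, and that of the pachynema and diplonema markers in P. Spermatogonial markers had a peak for 5, 5 and 3 of 6 genes in LZ, P and D, with median percentiles of 59.9, 54.4 and 25.2. Genes without a peak count as 0 in the medians of all lists, so that 25.2 in D is not the percentile of any of these genes. Of the spermatogonial markers Dmrt1 stood highest in LZ and P and Zbtb16 in D. Spermatid markers had a peak for 5 of 6 genes in each list, with medians of 58.3, 56.7 and 75.9, and Acr was the highest of them. Prm1 and Prm2 share their peaks and both count, with the same values, and peaks of Tnp1 and Acrv1 lay near other genes as well. The sedimentation fractions can hold germ cells of earlier and later stages, and the part that these had in the values of the heat shock genes was not tested. Sertoli cell markers had a peak for 2, 3 and 3 of 5 genes, with Gata4 highest in LZ and P and Amh and Rhox5 without one. Of 4 Leydig cell markers only Cyp11a1 had a peak, in P, and none of the 3 peritubular and 3 macrophage markers had a peak in any list.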

How the data were processed

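The data were 3 lists of dREG peaks in mm10, each made by the authors from the merged leChRO-seq reads of 4 libraries. The authors removed PCR duplicates with PRINSEQ lite and ran dREG with default settings. The submitters' processing notes name cutadapt, BWA and bedtools. The labels describe single-end and the study's methods paired-end sequencing. The deposited dREG score has no fixed range. The deposited p-value of each peak was used only as a filter in 1 alternative, and whether it is adjusted is not given in the sources used here. A further deposited position column was not used, and in 615 of 178062 rows it lay outside its peak.

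Peaks were joined to genes with Python 3.11.15 and pandas 2.3.3 through 132721 pairs of GENCODE M21 TSS and gene. Only protein-coding genes on chromosomes 1 to 19, X and Y were ranked. Coding sequences were the longest open reading frames of the transcripts and were aligned with biopython 1.88. The joining and ranking were tested on simulated data. The 10 genes, their classes, the lists and the motifs were chosen with earlier results of these data known. The genes named from the lists were the 5 largest rises and falls at each of 2 steps and those with a peak in some substages only. Hsf1, Hspd1, Hspe1, Sdf2l1, the 6 listed genes without any peak and single marker genes were named besides, after their values were seen. No test was made, and 10 alternatives were tried.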

Additional observations from a re-analysis of the deposited data

How the results depend on the processing

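No paired analysis was possible because the libraries of a substage, numbered 1 to 4 in the labels, were merged before peaks were called. For the same reason no library could be left out, and the lists hold no read counts, so depth was not compared. Each of the 10 genes kept a peak in all substages under every alternative except that Hspa1b had none in D with a score of at least 0.5 or a p-value of at most 0.01. The median percentile of the 10 genes in LZ, P and D was 73.6, 70.9 and 71.9 with TSSs of protein-coding transcripts only, 72.4, 69.5 and 70.6 with RefSeq TSSs, 78.7, 70.9 and 72.0 with each peak given to the nearest gene, 79.4, 72.0 and 73.0 with the peak nearest to a TSS, and 56.6, 40.2 and 42.2 when ranked among genes with a peak in all 3 substages. Ranked in that way, 1 gene rose and 5 fell from LZ to P (26.4% and 26.0% of all genes so ranked), 3 rose and 2 fell from P to D (30.8% and 27.7%), and 3 rose and 7 fell from LZ to D (34.5% and 31.8%), in place of 1 and 3, 2 and 1, and 0 and 3. The 7 count the shared peaks of Hspa1l and Hspa1a under both genes and include Hspa4l with its internal start. With lists of equal size, 23 peaks lay near these genes in each of LZ, P and D, in place of 36, 34 and 23. The only shift past 10 points that turned its sign was that of Hspa4l from LZ to D, -13.8 points, which was 7.6 with TSSs of protein-coding transcripts only and 7.9 with RefSeq TSSs. Over 10 alternatives the shift from LZ to P ranged from 17.9 to 36.9 points for Hspa5, from -33.9 to -15.7 for Hsp90ab1 and from -26.1 to -15.6 for Hspa1b. That of Hspa4l was past 10 points under 8, and not with protein-coding or RefSeq TSSs, which leave out its internal start. From LZ to D the shift ranged from -43.5 to -20.5 for Hsp90ab1 and, over the 8 alternatives that kept its D peak, from -30.3 to -15.5 for Hspa1b. From P to D it ranged from 11.4 to 24.0 for Hspa2, from 11.2 to 23.7 for Hsp90aa1 and from -21.3 to -9.7 for Hspa5. With the peak nearest to a TSS, Hspa5 (-9.7) was no longer counted as a fall and Hspa4l (16.2, in place of 7.9) was counted as a rise from P to D, so that 3 genes rose and 0 fell.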

Other observations

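Within 50000 bp of Hspa1a and Hspa1l the lists held 17 peaks in LZ, 15 in P and 11 in D, of which 13, 13 and 9 lay near a TSS of another gene. Only 1 peak in LZ, and none in P or D, lay near no TSS. Around Hspa8 there were 6, 7 and 5 peaks, of which 1, 2 and 2 lay near no TSS.

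A deposited p-value of exactly 0 was found for 20914 peaks in LZ, 19008 in P and 9307 in D. Of these, 32.8%, 34.2% and 41.6% had a dREG score under 0.5, although scores up to 1.213, 1.23 and 1.07 occurred with p-values above 0. Among the peaks of the heat shock genes there were 2 such peaks in LZ, 2 in P and 1 in D, for example the weak peak upstream of Hspa8 with a score of 0.326 in LZ. The reason was not tested.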
